A study of Mus musculus with 185 samples.

Results

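The genes described here are the immediate early genes Fos, Fosb, Jun, Junb, Jund, Egr1, Ier2, Atf3, Zfp36 and Nr4a1, which cells also transcribe when tissue is taken apart. They were chosen by name and not by any measured value. All 10 were listed among the 17171 genes of the deposited table, and all 10 passed the filter of a level above 5 TPM in at least 1 cell that left 15733 genes for comparison. Levels are given as log2 (TPM + 1), where TPM is a transcript's share of a cell's reads after correction for transcript length, so that levels can be set side by side between genes.

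The study followed fibroblast lineages in the mouse heart with tamoxifen-inducible Cre alleles and sequenced single cells captured on the Fluidigm C1, 33 from uninjured hearts and 152 from infarct tissue. Elsewhere the study calls the source of the 33 cells sham hearts. The cells fell into 9 label classes and 4 batches, which the table's header gives as date-like prefixes and which are read here as captures. Their names here are taken from the labels of the cells they hold. They are called here the uninjured hearts capture (33 cells), the Postn tracer capture (57 cells), the Tcf21 tracer capture (63 cells) and the scar capture (32 cells). The last 3 hold the infarct cells, taken 7 days after permanent ligation of the left coronary artery.

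By the labels, all mice were C57BL/6 from a backcross of 6 generations and about 5 months of age, while the study's methods give 5 generations for the Postn line. The Postn MCM/+; R26-eGFP and Tcf21 MCM/+; R26-eGFP mice carry the inducible Cre in 1 copy of the Postn or Tcf21 gene, so each line is heterozygous for the gene that drives its tracer, and tamoxifen was given in chow. Traced cells carry eGFP because the Postn or the Tcf21 gene was active while tamoxifen was present, and untraced cells do not. Every class was sorted negative for CD31, CD45 and the dye 7-AAD, which removes endothelial, blood and dead cells.

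The uninjured hearts capture held 12 resident Postn-negative cells, 17 resident Tcf21-traced cells, 3 resident Postn+ Tcf21+ cells and 1 resident Postn+ CD31- CD45- cell. The Postn tracer capture held 24 activated Postn-negative cells, 27 activated Postn-traced cells and 6 activated Postn+ untraced cells, which lacked eGFP but contained Postn transcripts. The Tcf21 tracer capture held 44 activated Tcf21-traced cells and 19 activated Postn+ untraced cells. The scar capture held 29 untraced scar cells and 3 activated Postn+ untraced cells. The study states 3 mice per group, but no label ties a cell to a mouse, and no label gives the mouse line of the untraced and negative classes. A description in the study places its eGFP-negative sorted cells, the Postn-negative classes among them, in the Postn line. Each class is therefore 1 sample, cells are not replicates of it, and no test of a difference was possible. The study's descriptions place the resident Postn-negative cells once in uninjured hearts and once in the region remote from an infarct.

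Immediate early genes are transcribed within minutes of a stimulus because the proteins that switch them on, such as serum response factor with its ternary complex partners and CREB, are already present and need only be phosphorylated. Most encode transcription factors, their transcripts decay fast, and in fibroblasts they answer growth factors, stretch, wounding and stress. They are also known to rise while tissue is digested at body temperature, which makes them a usual sign of cell isolation in single-cell data.

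All classes went through the same kind of isolation. Ventricles or parts of them were minced, digested with warm collagenase under repeated trituration, chilled, stained, sorted and loaded on the chip. Before this, regions of the left ventricle were dissected out under a microscope, the injury site by its eGFP fluorescence. Digestion was repeated until the tissue was in single cells. The methods give no handling time by class, so classes may differ in it. No class was fixed or blocked from transcription before digestion. A level reached in the heart and a level reached during isolation therefore cannot be told apart for any of the 10 genes. The uninjured hearts were all in 1 capture without infarct cells, so that capture and injury cannot be told apart either.

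Promoters are shown for Fos, Fosb, Junb and Nr4a1, members whose windows hold a letter run that recurs in the group. Each line gives the 250 bases before the RefSeq start, 5′ to 3′ on the gene's strand (GRCm38.p6): chr12:85473640-85473889 (plus) for Fos, chr7:19310046-19310295 (minus) for Fosb, chr8:84978749-84978998 (minus) for Junb and chr15:101266596-101266845 (plus) for Nr4a1. Capitals mark TGACG or its reverse complement, the core letters of the element that CREB and ATF proteins bind.
Fos: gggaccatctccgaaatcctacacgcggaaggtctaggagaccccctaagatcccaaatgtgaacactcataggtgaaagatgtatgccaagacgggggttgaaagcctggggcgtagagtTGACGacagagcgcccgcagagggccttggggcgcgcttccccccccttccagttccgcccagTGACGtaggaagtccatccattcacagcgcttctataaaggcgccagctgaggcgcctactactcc
Fosb: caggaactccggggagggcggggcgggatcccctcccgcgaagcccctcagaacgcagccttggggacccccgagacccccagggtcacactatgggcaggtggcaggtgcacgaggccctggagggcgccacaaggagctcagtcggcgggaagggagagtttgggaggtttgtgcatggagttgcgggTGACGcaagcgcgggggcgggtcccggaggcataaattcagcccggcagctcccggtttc
Junb: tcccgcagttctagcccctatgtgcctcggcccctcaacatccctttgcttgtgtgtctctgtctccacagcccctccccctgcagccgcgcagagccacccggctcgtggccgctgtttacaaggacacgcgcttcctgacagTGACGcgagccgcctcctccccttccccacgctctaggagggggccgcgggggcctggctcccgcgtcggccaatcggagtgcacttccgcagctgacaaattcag
Nr4a1: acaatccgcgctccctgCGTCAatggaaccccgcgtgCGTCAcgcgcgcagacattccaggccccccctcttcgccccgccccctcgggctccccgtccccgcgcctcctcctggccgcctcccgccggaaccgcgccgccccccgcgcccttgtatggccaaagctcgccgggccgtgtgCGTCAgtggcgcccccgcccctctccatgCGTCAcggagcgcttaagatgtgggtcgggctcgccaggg
The Nr4a1 window lies inside the annotated gene but holds no base of an exon, and the last 6 bases of the Fosb window lie in its annotated exon.

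Motifs were searched on both strands in windows of 300 bases, 250 before and 50 after the start, in the 8 members and in all 32851 windows of the table. TGACG was found in 5 of 8 members, with 4 matches in Nr4a1, 2 in Fos and 1 each in Fosb, Junb and Atf3, and in 20.8% of all windows. The longer TGACGTCA, which contains TGACG, was found in 0 of 8 members and 1.79% of all windows. TGANTCA, the letters AP-1 dimers bind, was found in 0 of 8 members and 7.81% of all windows. The CArG box of serum response factor was found in 1 of 8 members, Zfp36, and 1.63% of all windows. The RefSeq start is not always the annotated one: all 250 bases before the start of Zfp36 lie in annotated exons, those of Atf3 lie inside the gene with 7 in an exon, and those of Jund end at 70697738, ahead of the annotated gene at 70698949. A match describes letters and not binding, and a missing match says only that the letters are not in this window.

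The 10 genes lie at separate places in the genome (GRCm38, GENCODE annotation). Fos lies on chr12:85473890-85477273 on the plus strand with 4 exons, and Fosb on chr7:19302696-19310051 on the minus strand. The Jun genes have a single exon each: Jun on chr4:95049034-95052222 (minus), Junb on chr8:84974484-84978718 (minus) and Jund on chr8:70698949-70700616 (plus). Ier2 shares that single-exon structure and that chromosome, on chr8:84661331-84662852 (minus). Egr1 lies on chr18:34859823-34864984 (plus) with 2 exons, Zfp36 on chr7:28376784-28380253 (minus) with 2 exons, Atf3 on chr1:191170296-191218039 (minus) with 4 exons and Nr4a1 on chr15:101254269-101274795 (plus) with 8 exons. Egr1 and Ier2 were not in the RefSeq promoter table.

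Every member was detected, above 5 TPM, in some cells of each capture, and most members in most cells. Of the 33 uninjured and 152 infarct cells, Egr1 was detected in 173, Jun in 171, Fos in 169, Fosb in 159, Zfp36 in 154, Junb in 146, Atf3 in 127, Ier2 in 125, Nr4a1 in 103 and Jund in 66. Jund, the Jun protein known for steady rather than induced expression, was thus the member found in the fewest cells. At least 5 of the 10 members were detected in 163 of these cells, and all 10 in 23.

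**Figure D1:**
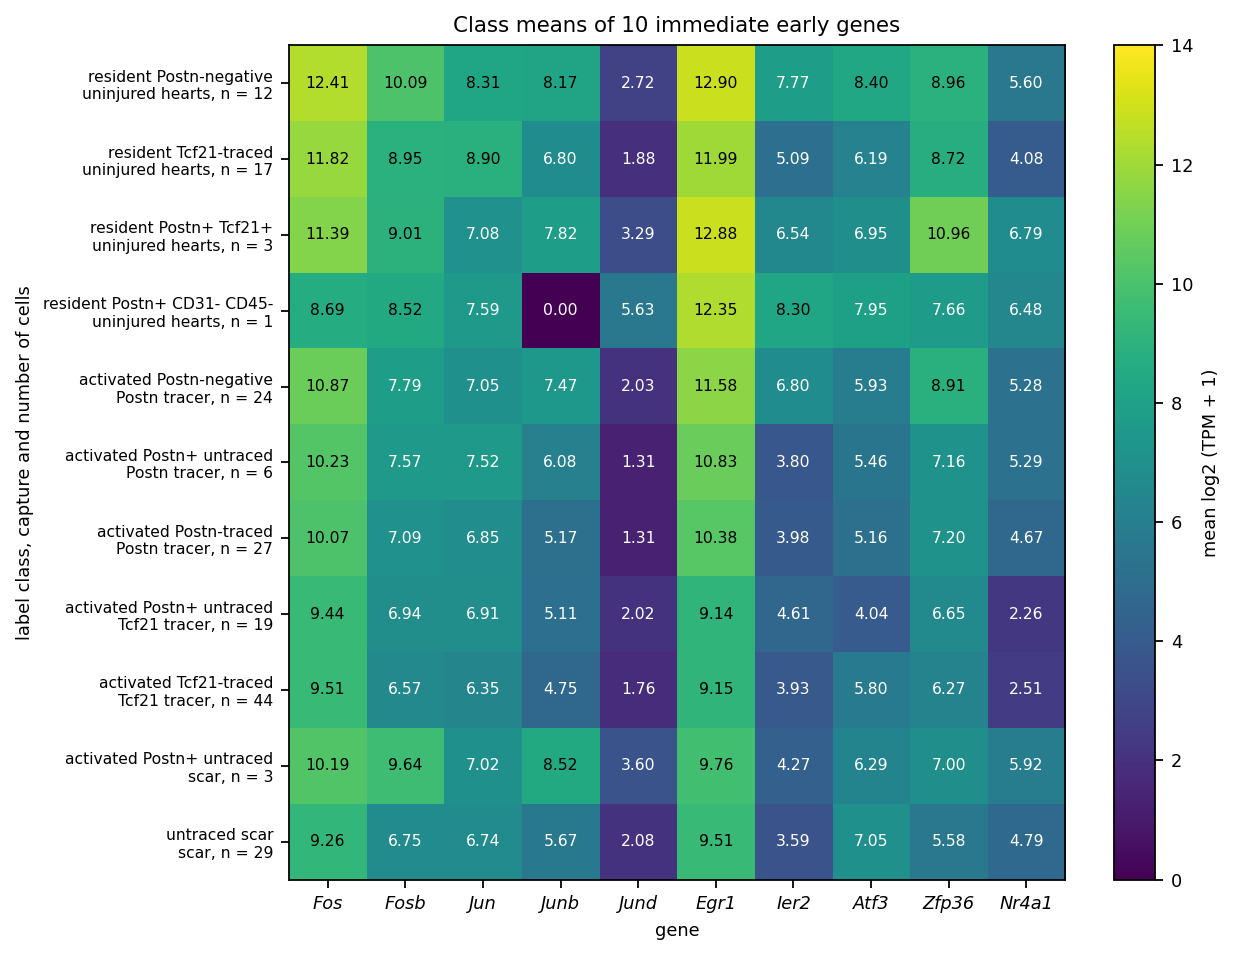
Mean level of each of the 10 genes, in log2 (TPM + 1), in each label class and capture (rows, with the number of cells n) by gene (columns). The highest mean of every row is that of Egr1 or Fos, Jund is lowest in all rows but 1, and the rows of the uninjured hearts capture lie above most infarct rows.

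Among the Fos family of AP-1 transcription factors, Fos was among the most abundant transcripts of these cells. In resident Postn-negative cells its lowest, median and highest levels were 9.92, 12.61 and 13.65, and in resident Tcf21-traced cells 8.94, 12.02 and 13.45. In infarct tissue they were 1.85, 11.77 and 13.05 in activated Postn-negative cells and 2.35, 11.37 and 12.37 in activated Postn-traced cells. Low cells thus occurred in the infarct classes, and the highest activated Postn-traced cell lay below the median resident Postn-negative cell. In the Tcf21 tracer capture the lowest, median and highest Fos levels were 0, 11.05 and 12.42 in activated Tcf21-traced cells and 0, 10.42 and 12.29 in activated Postn+ untraced cells. In untraced scar cells they were 0, 10.95 and 13.18. Fos was detected in 33 of 33 uninjured cells and in 136 of 152 infarct cells (89.5%, 95% exact Clopper-Pearson interval 83.5 to 93.9%).

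Class means of Fos were 12.41 (SD 1.06 between cells, n = 12) in resident Postn-negative cells and 11.82 (SD 1.18, n = 17) in resident Tcf21-traced cells. They were 10.87 (SD 2.85, n = 24), 10.07 (SD 2.90, n = 27), 9.51 (SD 3.67, n = 44), 9.44 (SD 3.33, n = 19) and 9.26 (SD 4.43, n = 29) in activated Postn-negative, Postn-traced, Tcf21-traced, Postn+ untraced (Tcf21 tracer capture) and untraced scar cells. The median TPM over cells was 4216 in the 33 uninjured cells and 2074 in the 152 infarct cells. A wider spread and a lower mean went together: the SD of Fos was 1.25 in the uninjured hearts capture and 2.95, 3.54 and 4.23 in the Postn tracer, Tcf21 tracer and scar captures.

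Fosb, the Fos relative that forms the same kind of AP-1 dimer, was likewise highest in the resident classes among those of 10 or more cells, at a lower level. Its class means were 10.09 and 8.95 in resident Postn-negative and resident Tcf21-traced cells. In the 5 infarct classes of 10 or more cells they ran from 7.79 in activated Postn-negative cells to 6.57 in activated Tcf21-traced cells. Fosb was at 0 in 1 of 33 uninjured cells and in 20 of 152 infarct cells.

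Of the Jun family, the partners of Fos proteins in AP-1, Jun was the most widely detected, and its SD over all cells, 2.56, was the lowest of the members other than Jund. Its class means were 8.90 in resident Tcf21-traced cells, 8.31 in resident Postn-negative cells and between 6.35 and 7.05 in the 5 infarct classes of 10 or more cells. Junb, which can oppose Jun in AP-1, had class means of 8.17 in resident Postn-negative cells, 7.47 in activated Postn-negative cells and 6.80 in resident Tcf21-traced cells. Both Postn-negative classes thus had the highest Junb means among the classes of 10 or more cells. The lowest were 5.17 in activated Postn-traced, 5.11 in activated Postn+ untraced and 4.75 in activated Tcf21-traced cells. Jund had class means between 1.31 and 2.72 in these 7 classes and was at 0 in 81 cells.

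Egr1, a zinc finger transcription factor and classical serum response factor target, had the highest class mean of the 10 genes in 5 of the 7 classes of 10 or more cells, and Fos in the other 2. Its lowest, median and highest levels were 11.90, 12.99 and 13.46 in resident Postn-negative cells and 8.19, 12.62 and 13.16 in resident Tcf21-traced cells. They were 0, 12.56 and 13.24 in activated Postn-negative cells and 1.65, 10.95 and 13.06 in activated Postn-traced cells. The activated Postn-negative cells thus had a median near that of the resident classes, and the activated Postn-traced cells a lower one. In the Tcf21 tracer capture they were 0, 10.19 and 12.54 in activated Tcf21-traced cells and 1.30, 10.10 and 12.24 in activated Postn+ untraced cells. In untraced scar cells they were 0, 10.70 and 12.01. The medians of these last 3 classes lay below the lowest resident Postn-negative cell. Egr1 was detected in 33 of 33 uninjured and 140 of 152 infarct cells (92.1%, interval 86.6 to 95.9%), so that most infarct cells had it, many at a lower level.

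**Figure D2:**
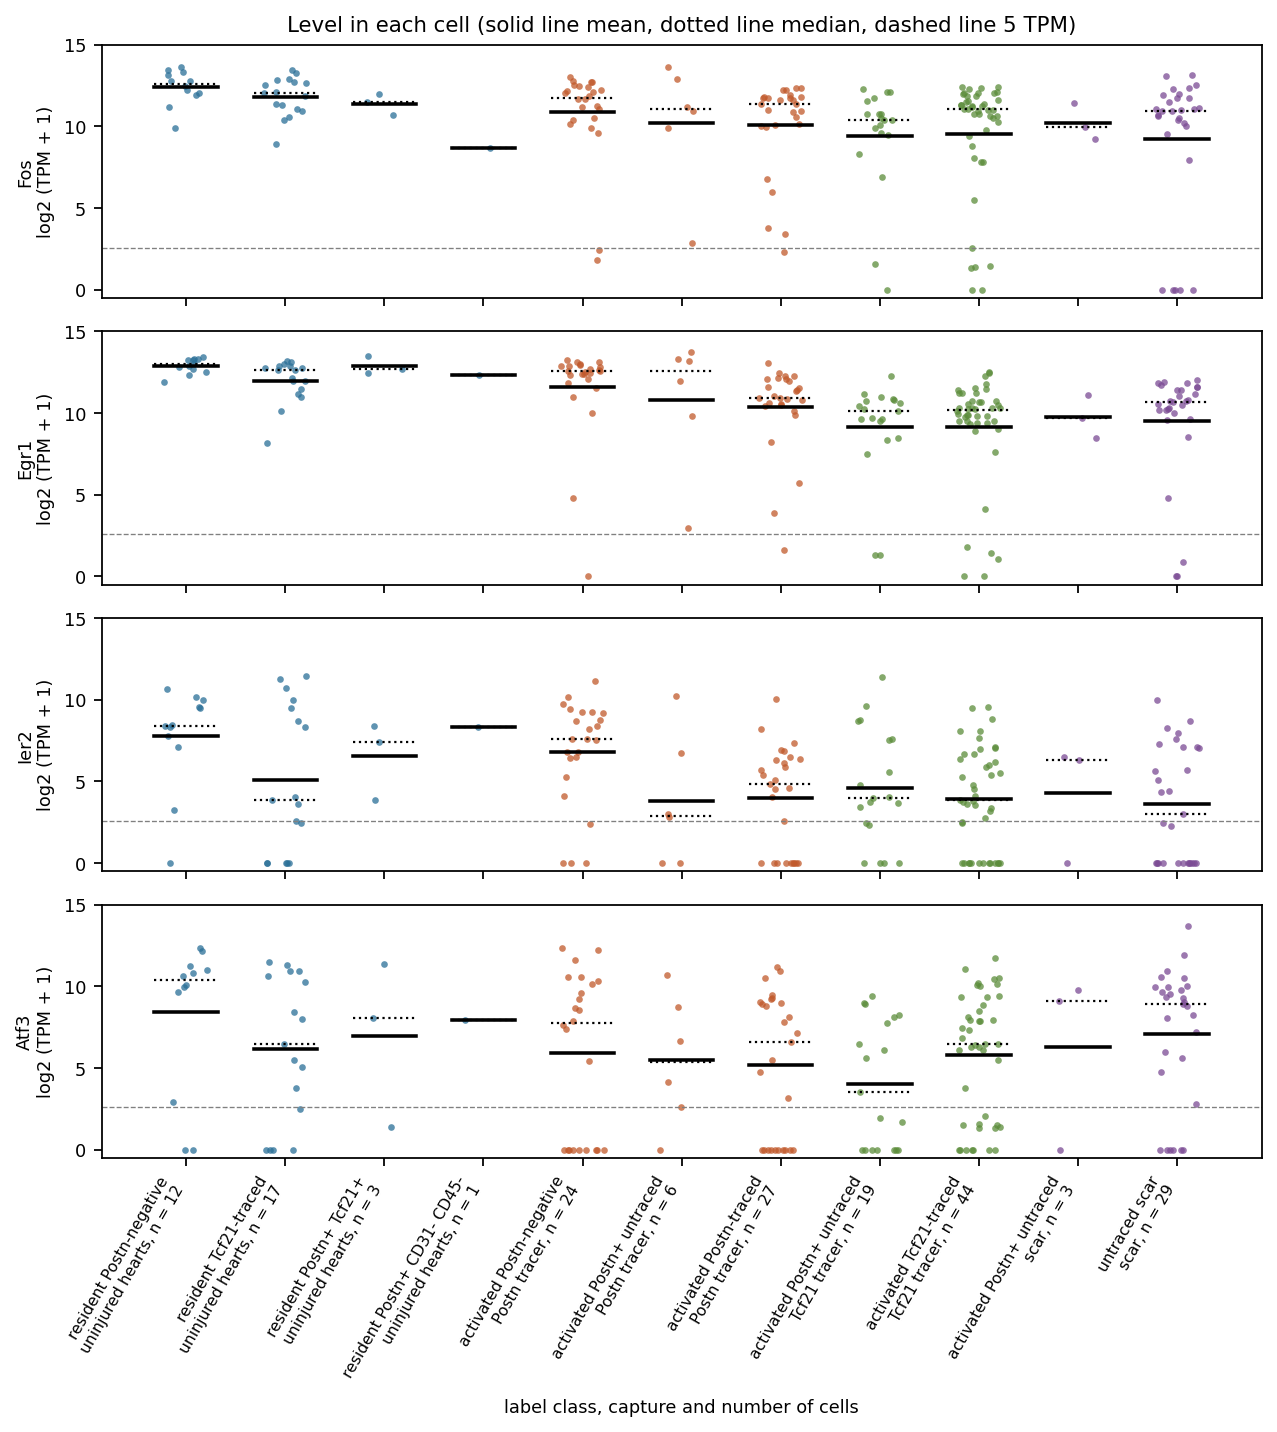
Level of Fos, Egr1, Ier2 and Atf3, in log2 (TPM + 1), in each cell by label class and capture, with solid lines for means, dotted lines for medians and a dashed line at 5 TPM. Fos and Egr1 lie high in every uninjured cell with a tail of low cells in infarct classes, while Ier2 and Atf3 spread from 0 to above 10 within most classes.

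Ier2, a nuclear protein of the immediate early response, varied most between the classes of a capture. Its lowest, median and highest levels were 0, 8.40 and 10.68 in resident Postn-negative cells and 0, 3.86 and 11.46 in resident Tcf21-traced cells of the same capture. They were 0, 7.58 and 11.12 in activated Postn-negative cells and 0, 4.84 and 10.07 in activated Postn-traced cells of the Postn tracer capture. In both captures the Postn-negative class thus had the higher median, and the classes overlapped over their whole range. In activated Postn+ untraced cells of the Tcf21 tracer capture they were 0, 3.96 and 11.40, in activated Tcf21-traced cells 0, 3.84 and 9.58, and in untraced scar cells 0, 3.03 and 9.99.

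Atf3, a stress-induced factor of the ATF/CREB family, was at 0 in 47 cells and high in others. Its median was 10.37 in resident Postn-negative cells, of which 2 of 12 were at 0, and 6.47 in resident Tcf21-traced cells, of which 4 of 17 were at 0. The median was 8.92 in untraced scar cells, 7.77 in activated Postn-negative, 6.59 in activated Postn-traced, 6.45 in activated Tcf21-traced and 3.50 in activated Postn+ untraced cells of the Tcf21 tracer capture. Its mean in untraced scar cells, 7.05, stood second among the classes of 10 or more cells, after 8.40 in resident Postn-negative cells.

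Nr4a1, an orphan nuclear receptor induced by many stimuli, had the Tcf21 tracer capture as its low point. Its class means there were 2.26 in activated Postn+ untraced and 2.51 in activated Tcf21-traced cells, with 10 of 19 and 22 of 44 cells at 0. In the other 5 classes of 10 or more cells the means ran from 4.08 in resident Tcf21-traced to 5.60 in resident Postn-negative cells. Nr4a1 was detected in 18 of 33 uninjured cells, 37 of 57 cells of the Postn tracer capture, 25 of 63 of the Tcf21 tracer capture and 23 of 32 of the scar capture, so that uninjured cells were not its high point by share of cells.

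Zfp36, the RNA-binding protein tristetraprolin, which speeds the decay of transcripts with AU-rich elements and so helps to end the response, had class means of 8.96, 8.91 and 8.72 in resident Postn-negative, activated Postn-negative and resident Tcf21-traced cells. The means were 7.20 in activated Postn-traced, 6.65 in activated Postn+ untraced, 6.27 in activated Tcf21-traced and 5.58 in untraced scar cells. The lowest, median and highest levels were 0, 9.58 and 12.11 in activated Postn-negative cells and 0, 8.39 and 10.99 in activated Postn-traced cells. Zfp36 was at 0 in 0 of 33 uninjured cells and in 21 of 152 infarct cells.

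When the 7 classes of 10 or more cells were ordered by their mean, no neighbours in the order of any of the 10 genes differed by more than the larger of their SDs between cells. Ordering places close means side by side, so this does not describe the ends of an order. For Egr1, the gene with the widest range over captures, the ends lay at 12.90 and 9.14. Of the variance of the mean of the 10 genes over these 172 cells, 11.8% lay between captures, 2.91% between classes of a capture and 85.3% between cells of a class. The part between captures was highest for Egr1 at 14.9% and lowest for Jund at 1.03%. The part between classes of a capture was highest for Ier2 at 7.13%. For Postn, the tracer gene on which labels rest in part, the parts were 38%, 31.9% and 30.1%. The members thus varied mainly between cells that share class and capture.

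In the small classes every cell can be given. The 1 resident Postn+ CD31- CD45- cell had Egr1 at 12.35, Fos at 8.69 and Fosb at 8.52, with Junb at 0. The 3 resident Postn+ Tcf21+ cells had Fos at 10.70, 11.98 and 11.49 and Egr1 at 13.51, 12.43 and 12.71. Their Egr1 lay within the range of the resident Postn-negative and Tcf21-traced cells but for the highest cell. The 3 activated Postn+ untraced cells of the scar capture had Fos at 11.41, 9.96 and 9.20, Egr1 at 11.10, 9.72 and 8.47 and Junb at 8.01, 7.18 and 10.38. Their mean over the 10 genes was 7.22, against 6.10 in the 29 untraced scar cells, of which 5 had fewer than 300 genes above 5 TPM. The medians over cells lay the other way, at 6.84 and 7.25.

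Cells low in most members at once were found in infarct classes. Fewer than 5 members were detected in 0 of 33 uninjured cells and 22 of 152 infarct cells, which leaves 85.5% of infarct cells with 5 or more (interval 78.9 to 90.7%). By class there were 2 such cells among 24 activated Postn-negative, 4 among 27 activated Postn-traced, 1 among 6 and 2 among 19 activated Postn+ untraced (Postn and Tcf21 tracer captures), 7 among 44 activated Tcf21-traced and 6 among 29 untraced scar cells. In 4 cells, all in the Tcf21 tracer capture, none of the 10 was detected. Of the 22 cells, 16 had more than 2000 genes above 5 TPM, so most were not poor in genes detected. Among the rest were 5 scar cells with 264, 141, 218, 244 and 188 genes above 5 TPM and 1, 2, 1, 3 and 1 members detected, cells whose few genes limit what can be read from them.

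Together the 10 genes made up a mean of 1.66% of all transcripts (TPM) in the uninjured hearts capture, 1.07% in the Postn tracer capture, 0.501% in the Tcf21 tracer capture and 0.711% in the scar capture. The share was 2.10% in resident Postn-negative and 1.42% in resident Tcf21-traced cells. The 10 named genes among 17171 thus held up to 2.73% of the transcripts of a single cell.

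Across captures, 9 of the 10 genes had their highest mean over class means in the uninjured hearts capture, and the exception was Nr4a1 (4.98 in the Postn tracer capture against 4.84). The mean of the 10 was 7.99 in the uninjured hearts, 6.78 in the Postn tracer, 5.69 in the Tcf21 tracer and 6.10 in the scar capture. The range over captures was widest for Egr1 at 3.30 log2 units, followed by Zfp36 at 3.26, Fos at 2.86, Ier2 at 2.84 and Fosb at 2.77. It was narrower for Nr4a1 at 2.59, Junb at 2.55, Atf3 at 2.38, Jun at 1.98 and Jund at 0.63. Genes detected per cell moved with capture too, at means of 2240, 2954, 3347 and 2727 in the same order, and their part in the member levels was not tested.

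The comparisons below take the difference between class means, in log2 units, and count a gene as higher or lower when it passes 1 unit in either direction. Since no spread between mice is known, each count is read only against the share of all 15733 genes that passed the same threshold. Of the comparisons, 3 lie within a capture, 1 sets the same label side by side in different captures, and 4 lie between captures.

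**Figure D3:**
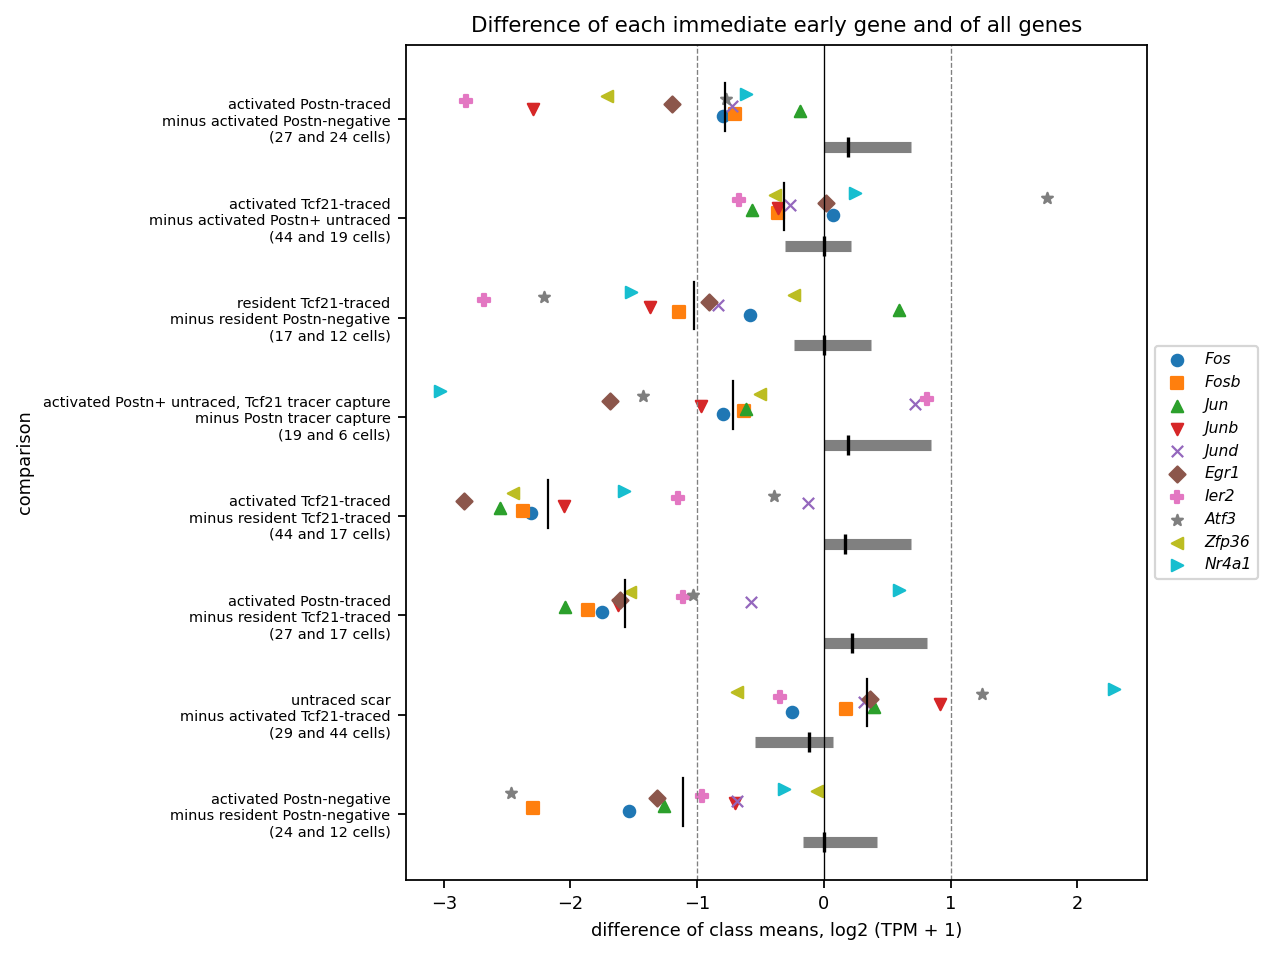
Difference of class means, in log2 units, of each of the 10 genes (symbols) in the 8 comparisons, with their median (thin vertical line), and below them the median and interquartile range of all 15733 genes (grey bar). The members lie left of all genes in most comparisons, furthest for activated Tcf21-traced minus resident Tcf21-traced cells, and right of them for untraced scar minus activated Tcf21-traced cells.

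Within the Postn tracer capture, activated Postn-traced cells were set against activated Postn-negative cells. Of the 10 genes, 4 were lower and 0 higher, while 2.35% of all genes were lower and 16.7% higher. Ier2 fell by 2.83, Junb by 2.30, Zfp36 by 1.71 and Egr1 by 1.20. All 10 differences were below 0, with a median of -0.78 against 0.19 for all genes. The remaining 6 members lay between -0.80 for Fos and -0.19 for Jun. The traced cells also had more genes above 5 TPM, at a median of 3643 against 2342, and the part of this in the difference was not tested. Among cells with 2000 to 3000 such genes, 5 traced against 20 negative cells, 8 members were lower and 1 higher, against 12.6% and 13.1% of all genes. Over all cells 3 of 6 fibroblast markers were higher and 1 lower. Of 6 smooth muscle markers 2 were higher and 0 lower, and of 6 pericyte markers 1 and 0. Summed smooth muscle markers had means of 752.6 TPM in traced and 105.8 TPM in negative cells. The part of these markers in the member differences was not tested.

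Within the uninjured hearts capture, resident Tcf21-traced cells were set against resident Postn-negative cells. By the descriptions given above, the Postn-negative cells may come from the Postn line or from a region remote from an infarct. Tracer, line and region therefore cannot be told apart here. By the threshold 5 of the 10 genes were lower and 0 higher, while 6.55% of all genes were lower and 8.65% higher. Ier2 fell by 2.68, Atf3 by 2.21, Nr4a1 by 1.52, Junb by 1.37 and Fosb by 1.14. The median of the 10 was -1.03 against 0 for all genes. Jun differed by 0.59, the only member above 0. Genes per cell were close here, at medians of 2264 and 2091.5. On linear means, log2 of the mean TPM + 1, 1 member was lower, against 19.8% of all genes, and the Ier2 difference was 0.014, and among cells with 2000 to 3000 genes above 5 TPM (11 against 9 cells) the Junb difference was 0.006.

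By class means over all cells, Ier2 and Junb were thus lower in the traced class of both captures, with the limit of line and region just given for the uninjured hearts. Egr1 differed by -0.91 and Zfp36 by -0.24 in the uninjured hearts capture, short of the threshold. The difference between both captures in these values was not tested.

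Within the Tcf21 tracer capture, activated Tcf21-traced cells were set against activated Postn+ untraced cells. Of the 10 genes, 1 was higher and 0 lower, while 3.34% of all genes were higher and 5.05% lower. Atf3 rose by 1.76, from a class mean of 4.04 to 5.80. By means of log2 values over all cells, Fos differed by 0.07 and Egr1 by 0.02. Their medians in the same order of classes were 11.05 and 10.42 for Fos and 10.19 and 10.10 for Egr1. The median of the 10 was -0.31 against 0 for all genes, and it was 0.32 on linear means and 1.23 among cells with 2000 to 3000 genes above 5 TPM (17 against 5 cells), so no direction is given for the group.

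The label activated Postn+ untraced occurs in 3 captures, which allows the same label to be read in different captures. Fos had means of 10.23, 9.44 and 10.19 in the Postn tracer (n = 6), Tcf21 tracer (n = 19) and scar captures (n = 3), and Egr1 10.83, 9.14 and 9.76. Nr4a1 had means of 5.29, 2.26 and 5.92 and was again lowest in the Tcf21 tracer capture. In the Tcf21 tracer capture minus the Postn tracer capture, 3 of the 10 genes were lower and 0 higher, while 7.35% of all genes were lower and 21.3% higher. Nr4a1 fell by 3.03, Egr1 by 1.69 and Atf3 by 1.43, with a median of -0.72 for the 10 and 0.19 for all genes. On linear means 7 members were lower, against 15.1% of all genes, and the median was -1.42. By medians over cells 4 were lower and 2 higher, with a pseudocount of 0.1 TPM 3 and 2, and with every cell shifted to the same median level of detected genes 2 and 2. The shares of all genes lower and higher were 4.86% and 13.5%, 10.9% and 32.7%, and 3.24% and 36.9% in these settings.

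A single cell weighed on this comparison. Of the 6 cells in the Postn tracer capture, 1 had Fos at 2.87 and Egr1 at 2.95, and the next lowest cells had 9.92 and 9.80. Without that cell 8 members were lower, against 9.48% of all genes, and the median was -2.17, a shift that follows from leaving out the lowest cell. The direction of the group was the same with and without it. Leaving out a low cell of the subtracted class makes the difference more negative, so nothing is read from this. The traced cells of these captures come from different mouse lines, and capture and line cannot be told apart for this label.

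Between captures, activated Tcf21-traced cells of the infarct were set against resident Tcf21-traced cells of uninjured hearts, the same tracer before and after injury. Of the 10 genes, 8 were lower and 0 higher, while 2.65% of all genes were lower and 16.9% higher. Egr1 fell by 2.84, Jun by 2.56, Zfp36 by 2.45, Fosb by 2.38 and Fos by 2.31. Junb fell by 2.05, Nr4a1 by 1.57 and Ier2 by 1.15. By medians over cells 6 members were lower and 1, Jund, was higher (2.07% and 12.4% of all genes), and Ier2 had medians of 3.84 and 3.86. Atf3 differed by -0.39 and Jund by -0.12. The median was -2.18 against 0.16 for all genes, and by this measure the Tcf21 lineage had lower immediate early transcripts in the infarct capture than in the uninjured one. The number of genes above 5 TPM was higher in the activated cells, at medians of 3134 and 2264. Among cells with 2000 to 3000 such genes, 17 against 11 cells, the median was -2.71 and 8 members were lower, against 8.36% of all genes. Cell type markers differed here too. Over all cells 3 of 6 fibroblast markers were higher and 2 lower. Of 6 smooth muscle markers 2 were higher and 0 lower, and of 6 pericyte markers 1 and 0. These counts were the same for activated Postn-traced minus resident Tcf21-traced cells, and their part in the member differences was not tested.

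Activated Postn-traced cells were set against the same resident Tcf21-traced cells, so both comparisons share their control. The activated Postn-traced and the resident Tcf21-traced cells come from different mouse lines, so line, capture and injury cannot be told apart here. Of the 10 genes, 8 were lower and 0 higher, while 2.51% of all genes were lower and 20% higher. Jun fell by 2.05, Fosb by 1.86, Fos by 1.75, Junb by 1.62, Egr1 by 1.61 and Zfp36 by 1.53. Ier2 fell by 1.11 and Atf3 by 1.03, and by medians over cells they differed by 0.98 and 0.12. Jund differed by -0.57 and Nr4a1 by 0.59. The median was -1.57 against 0.22 for all genes, and 5 members were lower on linear means (17.8% of all genes). By medians over cells 4 were lower and 1, Nr4a1, was higher (1.83% and 13.8% of all genes). By means of log2 values the AP-1 genes Fos, Fosb, Jun and Junb were thus lower in both activated traced classes. The medians of Fos, 11.05 and 11.37 against 12.02, lay less than 1 log2 unit apart. By means, Nr4a1 fell by 1.57 in the activated Tcf21-traced class and differed by 0.59 in the activated Postn-traced class. By medians over cells it was higher past the threshold in the latter. Nr4a1 was detected in 66.7% of activated Postn-traced and 41.2% of resident Tcf21-traced cells.

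Activated Postn-negative cells were set against resident Postn-negative cells. Of the 10 genes, 5 were lower and 0 higher, while 5.2% of all genes were lower and 10.3% higher. Atf3 fell by 2.47, Fosb by 2.30, Fos by 1.54, Egr1 by 1.32 and Jun by 1.26. Zfp36 differed by -0.05, Nr4a1 by -0.32, Jund by -0.68, Junb by -0.70 and Ier2 by -0.97. The median was -1.12 against 0 for all genes, and on linear means it was -0.53 with 1 member lower, against 18.2% of all genes. Of 5 myeloid markers 1 was lower here and 0 higher, the lower one being Lyz2, chosen after its values were seen. Their sum had means of 7.2 TPM in activated and 1426 TPM in resident Postn-negative cells, with a median of 0 in both. At least 3 of these markers were detected in 1 of the 12 resident cells. The part of this in the differences was not tested. By means of log2 values Fos, Fosb, Jun and Egr1 thus fell in all 3 comparisons of infarct with uninjured cells. Infarct and uninjured cells lay in different captures in each, and injury and capture cannot be told apart.

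Untraced scar cells were set against activated Tcf21-traced cells, both of infarct tissue. Here 2 of the 10 genes were higher and 0 lower, while 1.11% of all genes were higher and 13.2% lower. Nr4a1 rose by 2.29 and Atf3 by 1.25. The other 8 members lay between -0.69 for Zfp36 and 0.92 for Junb, with a median of 0.34 for the 10 and -0.12 for all genes. Once every cell was shifted to the same median level of detected genes, the median was -0.50 and that of all genes -0.95, with 1 member higher and 3 lower (0.0763% and 45.4% of all genes). Without the cells under 50% of the median number of genes of their capture, 23 against 44 cells, 5 members were higher, against 4.14% of all genes, and the median was 1.11. Among cells with 2000 to 3000 genes above 5 TPM, 6 against 17 cells, 9 members were higher, against 12.4% of all genes, and the median was 2.39. Nr4a1 and Atf3 were past the threshold without the shallow cells too, and after the shift Nr4a1 alone was.

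Other scalings shifted the median of all genes and are given here once. Shifting every cell to the same median level over genes above 5 TPM moved the all-gene median to 0.71 for activated Postn-traced minus activated Postn-negative cells, -0.26 for activated Tcf21-traced minus activated Postn+ untraced, 0.73 for the same label in 2 captures, 0.61 and 0.72 for the activated Tcf21-traced and Postn-traced cells minus resident Tcf21-traced cells, and -0.95 for untraced scar minus activated Tcf21-traced cells. Centring on 8 reference genes moved it to -0.71 for resident Tcf21-traced minus Postn-negative cells, -0.83 for the same label in 2 captures, -0.56 for activated minus resident Postn-negative cells and 1.06 for untraced scar minus activated Tcf21-traced cells. It became -0.13 for activated Postn-traced minus activated Postn-negative cells, and -0.16 and 0.06 for the activated Tcf21-traced and Postn-traced cells minus resident Tcf21-traced cells. A centring adds the same amount to every gene of a comparison, so the distance of the members from the median of all genes is the same with and without it.

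Across cells of a capture, the members varied together in infarct tissue more than in uninjured hearts. The mean Pearson r over the 45 pairs was 0.150 in the uninjured hearts capture (n = 33 cells), 0.439 in the Postn tracer (n = 57), 0.442 in the Tcf21 tracer (n = 63) and 0.378 in the scar capture (n = 32). The cells of a capture share a batch and differ in genes detected, so these values are descriptions. Spearman's rho gave means of 0.147, 0.414, 0.390 and 0.280. Pairs with r above 0.5 numbered 0, 19, 22 and 15, and pairs below 0 numbered 9, 1, 1 and 4. In the scar capture the mean r was 0.238 without the 5 cells of fewer than 300 genes, on 27 cells.

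**Figure D4:**
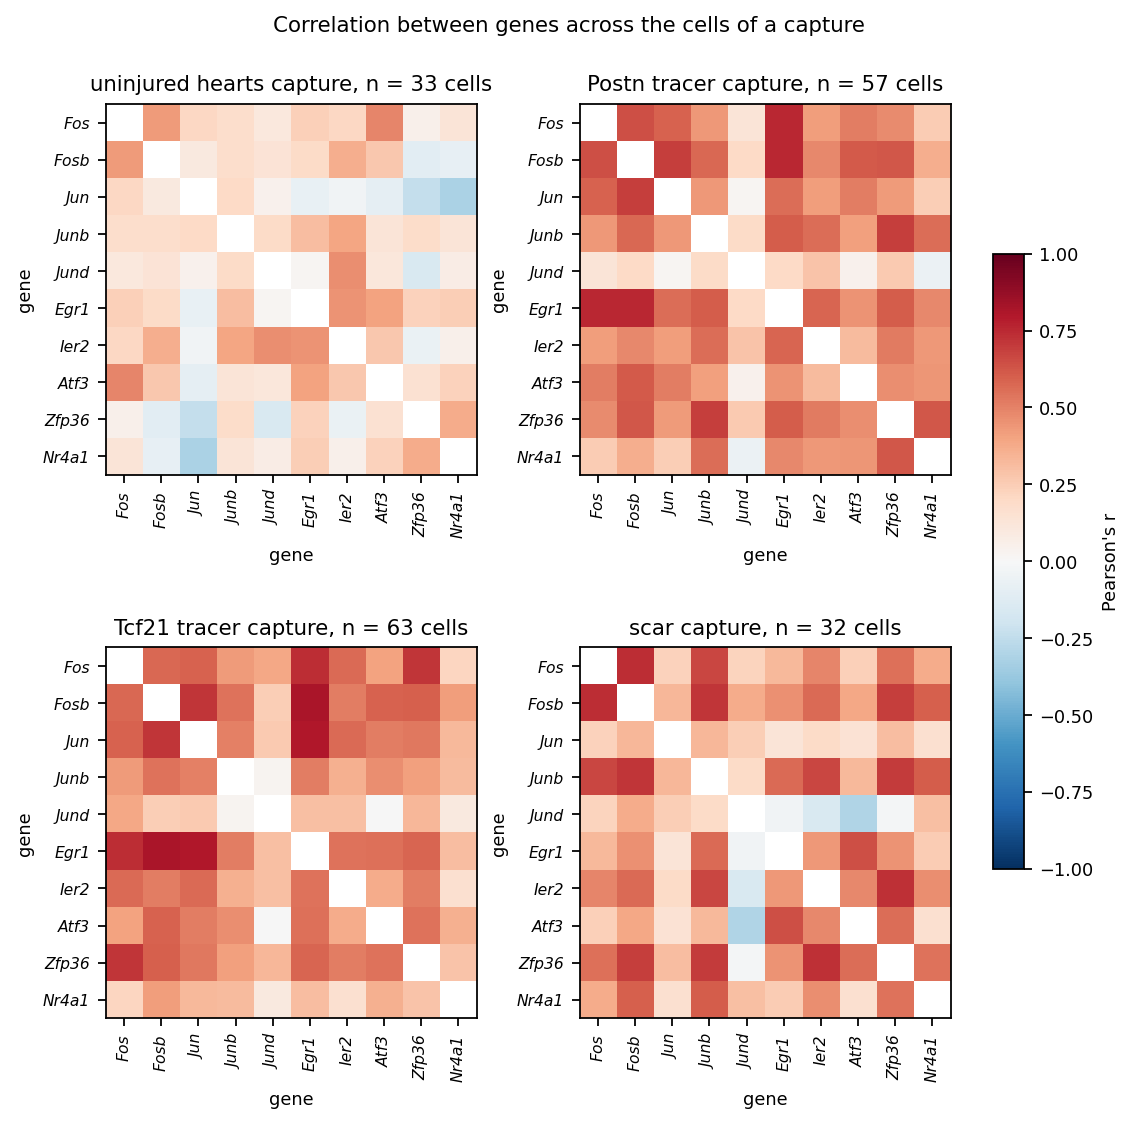
Pearson's r between each pair of the 10 genes across the cells of each capture (colour scale from -1 to 1, n cells in each title). Most pairs are positive in the 3 infarct captures, values lie nearer 0 in the uninjured hearts capture, and the Jund row is pale in the infarct captures.

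The closest pairs joined the members by role and across roles. Fos and Egr1 had an r of 0.756 in the Postn tracer capture, Fosb and Egr1 0.817 in the Tcf21 tracer capture, and Fos and Fosb 0.741 in the scar capture. In the uninjured hearts capture the highest was 0.488 for Fos and Atf3, and the lowest -0.32 for Jun and Nr4a1. Averaged over captures, the mean r of a member with the other 9 was highest for Fosb at 0.453, followed by Egr1 at 0.427 and Fos at 0.408, and lowest for Jund at 0.139. In the uninjured hearts capture Jun was lowest at -0.02, followed by Zfp36 at 0.05 and Nr4a1 at 0.09, with Jund at 0.11. The spread also differed between captures, the SD of Egr1 being 1.07 in the uninjured hearts capture and 2.97, 3.18 and 3.32 in the others.

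The mean of the 10 genes was compared with the number of genes above 5 TPM in the same cells. Pearson's r was 0.01 in the uninjured hearts, -0.10 in the Postn tracer, 0.15 in the Tcf21 tracer and 0.73 in the scar capture, and 0.33 in the latter on 27 cells without the 5 shallow ones. Within the first 3 captures the member level thus bore little relation to genes detected.

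**Figure D5:**
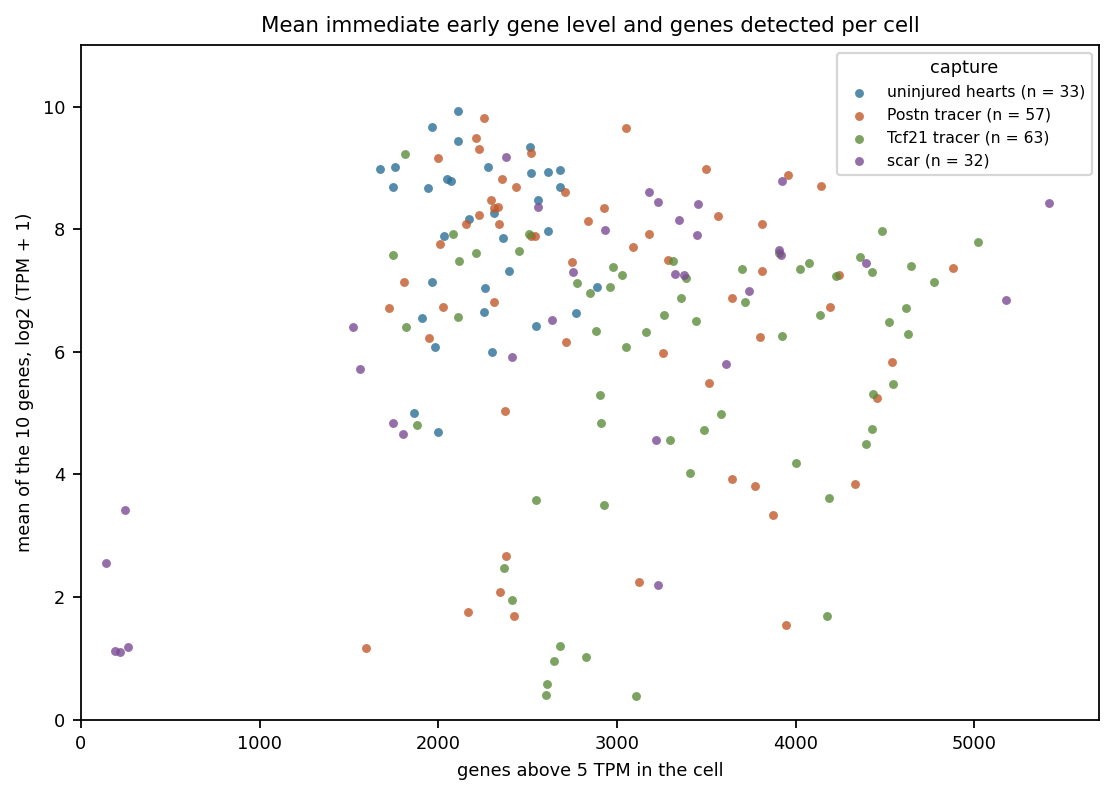
Mean level of the 10 genes, in log2 (TPM + 1), against the number of genes above 5 TPM, for each cell by capture. Cells with a low mean occur across the range of genes detected in the infarct captures, and the 5 scar cells with fewer than 300 genes lie at the lower left.

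Genes outside the 10 whose levels most followed the mean of the 10 across cells were sought among 1636 genes above 5 TPM in at least 50% of cells, of which 9 were members. The likeness is the mean over captures of Pearson's r with that mean, and its median over these genes was 0.122. It includes the 5 scar cells of fewer than 300 genes, and their part in the scar values was not tested. In that capture the mean of the 10 followed genes detected at an r of 0.73, and 0.33 without them. Highest were the chemokine Cxcl1 at 0.654, the nuclear NF-kB regulator Nfkbiz at 0.585 and the antiproliferative gene Btg2 at 0.576. Klf4 followed at 0.561, the histone demethylase Kdm6b at 0.553, the phosphatase Dusp1 at 0.508, Irf1 at 0.501 and the stress phosphatase subunit Ppp1r15a at 0.487. The r in the uninjured hearts capture alone was 0.187 for Btg2, 0.157 for Klf4, 0.169 for Dusp1 and 0.234 for Ppp1r15a, against 0.577 for Cxcl1. Of these 8, 5 stand in lists of induced genes and Nfkbiz, Kdm6b and Irf1 in none of the lists used. Across captures their levels did not all move as the members did: Btg2 had means of 10.25, 8.84, 7.15 and 7.75 in the uninjured hearts, Postn tracer, Tcf21 tracer and scar captures, while Cxcl1 had 8.30, 8.92, 7.62 and 8.07.

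Feedback regulators end signalling or destabilise transcripts. In activated minus resident Tcf21-traced cells, 7 of 17 were lower and 2 higher (2.65% and 16.9% of all genes), with a median of -0.65. Btg2 fell by 2.46, Dusp1 by 2.20 and Ppp1r15a by 1.79, while Ier3 rose by 2.91. In activated minus resident Postn-negative cells 5 were lower and 2 higher (5.2% and 10.3% of all genes), and in activated Postn-traced minus resident Tcf21-traced cells 5 were lower and 4 higher (2.51% and 20%). Within the Postn tracer capture, in traced minus negative cells, 5 were lower and 5 higher (2.35% and 16.7%), and Dusp1 fell by 1.12 and Ppp1r15a by 1.30. The list thus moved in both directions, with Btg2, Dusp1 and Ppp1r15a on the side of the members in each comparison of infarct with uninjured cells.

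Capture means of Dusp1 were 9.69, 8.45, 7.34 and 7.47 in the uninjured hearts, Postn tracer, Tcf21 tracer and scar captures, and of Ppp1r15a 8.87, 6.73, 5.60 and 6.22, the order of the members' mean. Those of Ier3 were 3.44, 6.07, 5.83 and 6.72, lowest in the uninjured hearts.

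Of other immediate early transcription factors, 1 of 13 was lower and 3 were higher in activated minus resident Tcf21-traced cells, against 2.65% and 16.9% of all genes, with a median of 0.45. Klf4 fell by 1.44, and its capture means of 8.91, 7.55, 7.19 and 7.05 were highest in uninjured hearts as for the members. Klf6 had capture means of 5.30, 6.26, 6.95 and 6.92, Nr4a2 of 0.73, 2.27, 1.35 and 3.57, and Klf10 of 2.78, 1.39, 3.27 and 3.44. Nr4a2, a close relative of Nr4a1, was thus lowest where most members were highest. It rose by 1.86 in untraced scar minus activated Tcf21-traced cells, where Nr4a1 rose by 2.29.

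Heat shock chaperones, some of which are induced by protein damage and heat, had 4 of 12 higher and 2 lower in activated minus resident Tcf21-traced cells, against 16.9% and 2.65% of all genes, with a median of 0.49. Hspa8 had capture means of 10.96, 10.62, 10.94 and 11.10 and Hsp90ab1 of 10.13, 9.57, 9.97 and 9.16. These abundant chaperones thus ranged over 0.48 and 0.98 log2 units, against 3.265 for Egr1, all by means over all cells of a capture. They were picked by abundance and do not stand for the rest of the list. Hspe1 had means of 2.65, 5.47, 6.36 and 4.30 and Hspb1 of 1.29, 1.74, 2.86 and 3.39.

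Induced secreted and inflammatory genes had 5 of 12 higher and 0 lower in activated minus resident Tcf21-traced cells, against 16.9% and 2.65% of all genes, with a median of 0.92. Ccl2 rose by 3.84 and Has1 by 1.27, while Cxcl1 differed by -0.19. In resident Tcf21-traced minus resident Postn-negative cells 6 of 12 were lower and 0 higher (6.55% and 8.65% of all genes), among them Cxcl1, which fell by 2.29, and Ccl2, which fell by 1.85. This was the comparison in which 5 members were lower too. The myeloid marker Lyz2, chosen after its values were seen, was also lower there, and summed myeloid markers had means of 1426 TPM in resident Postn-negative and 22 TPM in resident Tcf21-traced cells, although cells with CD45 had been sorted out. At least 3 of these markers were detected in 1 of the 12 Postn-negative cells, the median was 0 in both classes, and the part of this in the differences was not tested. Capture means of Ccl2 were 0.96, 1.497, 4.44 and 4.06 in the uninjured hearts, Postn tracer, Tcf21 tracer and scar captures, of Has1 1.39, 2.13, 2.42 and 3.79, and of Cyr61 5.70, 7.09, 7.28 and 5.69.

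The kinases and ternary complex factors that act upstream of the members had 2 of 11 higher and 0 lower in activated minus resident Tcf21-traced cells, against 16.9% and 2.65% of all genes, a share of higher genes near that of all genes. Elk4 rose by 1.09. Mkl2 differed by 0.86 and Mapk3 by 0.82. Their capture means were 2.22, 2.45, 3.20 and 2.66 for Elk4, 1.74, 2.51, 3.25 and 2.41 for Mkl2 and 1.16, 2.47, 3.17 and 1.93 for Mapk3. All 3 were lowest in the uninjured hearts capture, where the members were highest. The kinases of the list act by phosphorylation, which transcript levels do not show.

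Of the 8 reference genes, 1 was higher and 0 lower in activated minus resident Tcf21-traced cells, against 16.9% and 2.65% of all genes, with a median of 0.34. Actb had capture means of 12.76, 12.80, 13.18 and 13.01, Eef1a1 of 12.42, 12.57, 12.48 and 11.81, Ppia of 10.50, 10.83, 11.68 and 8.84 and Rplp0 of 10.35, 11.02, 11.43 and 9.22. B2m and Gapdh, chosen after their values were seen, had means of 10.74, 10.21, 10.26 and 9.56 and of 9.32, 8.68, 10.38 and 8.20. The reference genes thus did not move alike over captures, and B2m was highest in the uninjured hearts as most members were.

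The cells carried the fibroblast label. Dcn was above 5 TPM in every cell, Pdgfra in 141 and Tcf21 in 92. The collagen genes Col1a1, Col1a2 and Col3a1 were above it in 177, 183 and 178. These collagens alone can meet a minimum of 3 of 6 markers, and the study calls collagen mRNA unreliable for identifying fibroblasts. The study likens its eGFP-negative infarct cells, which lack a myofibroblast signature, to non-fibroblast mesenchymal cells of uninjured hearts. The count that follows is thus not specific to fibroblasts. At least 3 of 6 fibroblast markers were detected in 180 cells, 32 of the 33 uninjured ones among them, Dcn being the most abundant, with mean summed levels of 18902, 18568, 14425 and 19334 TPM in the uninjured hearts, Postn tracer, Tcf21 tracer and scar captures. At least 3 endothelial markers of 5 were detected in 0 cells, with summed means of 0.1, 14.5, 2.3 and 1.7 TPM, Pecam1 as the most abundant and Tie1 above 5 TPM in no cell. At least 3 of 5 myeloid markers were detected in 2 cells, with summed means of 530.0, 16, 8.1 and 33.3 TPM and Cd14 as the most abundant. The median cell was at 0 in all 4 captures, and 1 of the 2 cells was a resident Postn-negative cell.

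Smooth muscle markers, which activated fibroblasts also express, were detected at 3 or more of 6 in 22 cells, of which 0 lay in the uninjured hearts and 15 in the Tcf21 tracer capture, with summed means of 102.9, 409.2, 688.0 and 279.6 TPM and Tagln as the most abundant. Pericyte markers were detected at 3 or more of 6 in 5 cells, with summed means of 52.1, 88.6, 128.4 and 303.4 TPM and Pdgfrb as the most abundant. Cardiomyocyte markers reached 3 of 5 in 2 cells (29.7, 20.9, 13 and 0.1 TPM, Tnnt2) and epicardial markers in 1 cell (0, 43, 1.6 and 81.2 TPM, Wt1). The smooth muscle sum was lowest in the capture with the highest member levels and highest in the capture with the lowest, and its part in the member differences was not tested.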

How the data were processed

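RNA was sequenced from single cardiac fibroblasts of mice, isolated on the C1 in 4 batches read here as captures, and 185 cells in 9 label classes were used. The submitters' processing notes name the build mm10 and the tools Bowtie 1.0.0 and eXpress 1.5.1. The authors deposited the values as log2 (TPM + 1) per the table's header, while the file's title says FPKM. They were taken as TPM because on the linear scale they sum per cell to 999256.9 to 1000000.0 TPM. The table's 3 columns without a sample were not used.

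Cells were grouped by label and capture, and 8 class comparisons were made as differences of mean log2 values, called past 1 log2 unit among 15733 genes above 5 TPM in at least 1 cell. Cells are not replicates and no mouse is known, so no test was run. Intervals of detection shares are exact binomial at 95% and cover counting error alone. Depth per cell is not known, and genes above 5 TPM per cell are given in its place. The report names all 10 members and, by rule, the 2 genes of each other list with the highest mean over all cells and the 2 with the widest range over capture means, the 8 genes most like the members' mean, and for cell type lists the most abundant gene and those at 0. There were 13 other lists. Of the genes this rule names, 1 is not reported here. Members and lists were chosen by name, with earlier results of these data known. Dusp5, Cdh5, Adgre1, Nppa and Muc16 were not in the table.

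Alternatives were pseudocounts of 0.1 and 5 TPM, linear means, medians over cells, 2 centrings, shallow cells left out, a window of genes detected, other gene filters, detection minimums and thresholds, and Spearman correlation. Scripts used Python 3.11.15 with the packages scipy 1.17.1, matplotlib 3.10.9, pandas 2.3.3 and numpy 2.4.6, and were tested on simulated data.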

Additional observations from a re-analysis of the deposited data

Results flagged for a closer look

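In 1 cell, 2 values stood far from the rest of its class. Among the 6 activated Postn+ untraced cells of the Postn tracer capture, the cell with the lowest Fos had 2.87, against 9.92 for the next lowest, on the log2 (TPM + 1) scale. The lowest Egr1, in the same cell, was 2.95, against 9.80 for the next. It was the single class with 4 to 10 cells in a capture, so 11 sets of values were tested, the 10 genes and their mean, and 2 stood out. Chance is taken to give about 1 in 20 such sets, a rate that was not measured on these data, and the sets share the same cells. No explanation was tested.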

How the results depend on the processing

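Differences below are on the log2 scale, and each median is over the 10 genes. Of the 36 member differences past 1 log2 unit, the number still past it was 36 without shallow cells, 36 and 34 with pseudocounts of 0.1 and 5 TPM, 36 after centring on 8 reference genes, 30 after centring on each cell's median level, 33 among cells with 2000 to 3000 genes above 5 TPM, 27 with medians over cells and 23 with linear means. Leaving out shallow cells removed cells in the scar comparison alone, so the differences of the other comparisons could not move under it. The sign changed for 1 of the 36 among cells with 2000 to 3000 genes, 1 with linear means and 2 with medians over cells. The pseudocounts moved 0 of 16 medians by 0.5 log2 units or more. Of 178 counts of all genes past the threshold, 108 differed by more than 1.5 times. The shares of cells with a member detected moved beyond their interval in 10 of 20 values with minimums of 1 TPM or above 0. The 4 capture means moved by less than 0.5 log2 units with means over all cells, and the 4 mean correlations by less than 0.1 with Spearman's rho.

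On linear means, 15.1% to 25.2% of all genes were lower and 17.4% to 39.1% higher over the 8 comparisons. With these the median was 0.32 (-0.31 in the report) for activated Tcf21-traced minus Postn+ untraced cells and -0.47 (-1.03) for resident Tcf21-traced minus Postn-negative cells, with 1 member lower (5) and Ier2 at 0.014 (-2.68). For the Postn+ untraced label in 2 captures it was -1.42 (-0.72) with 7 lower (3). It was -1.61 (-2.18) for activated minus resident Tcf21-traced cells, -0.99 (-1.57) with 5 lower (8) for activated Postn-traced minus resident Tcf21-traced cells, and -0.53 (-1.12) with 1 lower (5) for activated minus resident Postn-negative cells.

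With medians over cells, the median was -1.40 for activated minus resident Tcf21-traced cells. It was -0.75 for activated Postn-traced minus resident Tcf21-traced cells, with 4 lower, Ier2 at 0.98 (-1.11) and Atf3 at 0.12 (-1.03).

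With every cell shifted to the same median level of detected genes, the median was -0.26 (-0.78) for activated Postn-traced minus Postn-negative cells, -0.17 for the same label in 2 captures, and -0.50 (0.34) with 1 higher (2) for untraced scar minus activated Tcf21-traced cells. The share of called genes that were higher went to 14.8% (39.8%) for activated Tcf21-traced minus Postn+ untraced cells and to 91.9% (74.3%) for the same label in 2 captures. Without cells under 50% of their capture's median number of genes, the scar comparison had 1.11 and 5 higher. Past 2 log2 units, 2 members were lower for activated Postn-traced minus Postn-negative cells, 0 higher for activated Tcf21-traced minus Postn+ untraced, 2 lower for the resident classes, 1 lower for the same label in 2 captures, 6 lower for activated minus resident Tcf21-traced, 1 lower for activated Postn-traced minus resident Tcf21-traced, 1 higher for scar and 2 lower for the Postn-negative classes, a smaller number because the threshold is stricter.

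The next settings were added after seeing the data. Centred on 8 reference genes, 8 members were lower for activated Postn-traced minus Postn-negative cells. The median was -1.74 with 8 lower for the resident classes, -1.73 with 8 lower for the same label in 2 captures, 1.51 with 7 higher for scar and -1.67 with 8 lower for the Postn-negative classes. The share of called genes that were higher went to 71.1% (87.7%), 10.6% (56.9%), 15% (74.3%), 96.6% (7.76%) and 22.4% (66.4%) in these, and to 69.4% (86.4%) for activated minus resident Tcf21-traced cells.

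Among cells with 2000 to 3000 genes, 8.30% to 15.4% of all genes were lower and 9.34% to 18.9% higher over the comparisons. The median was -1.68 with 8 lower for activated Postn-traced minus Postn-negative cells (5 against 20 cells), and 1.23 with 6 higher for activated Tcf21-traced minus Postn+ untraced cells (17 against 5). Junb differed by 0.006 (-1.37) between resident classes (11 against 9). The same label in 2 captures had -5.53 with 9 lower (5 against 3). Activated minus resident Tcf21-traced cells had -2.71 (17 against 11), activated Postn-traced minus resident Tcf21-traced cells -2.10 (5 against 11), and scar 2.39 with 9 higher (6 against 17). Without the cell of lowest Fos, the same label in 2 captures had -2.17 with 8 lower. Without cells under 50% of its median number of genes, the mean correlation in the scar capture was 0.265 (0.378). A centring adds the same amount to every gene of a comparison, so what moved under it describes that shift. Beside this, the stricter threshold and smaller numbers of cells, the cause was not tested.

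No paired analysis was possible because the labels tie no cell to a mouse. Cells of a class are not replicates, and counting depth per cell is not known.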
